A study of Mus musculus with 11 samples.

Results

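NF-kB is the family of dimeric transcription factors through which macrophages answer bacterial products, and 10 of its genes are described here: the subunit genes Rela, Rel, Relb and Nfkb2, the cytoplasmic inhibitors Nfkbia, Nfkbib and Nfkbie, the nuclear IkB-like proteins Bcl3 and Nfkbiz, and Tnfaip3, which encodes the ubiquitin-editing enzyme A20. They were taken by symbol, and all 10 were measured among 18193 genes. Where a gene has several probe sets, the one with the greatest average signal across the 11 arrays stands for it. All macrophages were cultured for 7 days from bone marrow of Rag1-/- C57BL/6 mice aged 7 weeks and sorted on the macrophage surface antigen that the gene Adgre1 encodes. M1 cells received IFN-g and LPS, with the last 24 h named for this treatment (3 arrays). M2a cells received IL-4 together with IL-13 (3 arrays), with no such time at hand, and M0 cells received no cytokines (5 arrays). M1 and M2a may therefore differ in the time since treatment. Every group, M0 included, carried the Rag1 deletion, which leaves mice without mature T and B cells but with their innate cells. The labels number the replicates without saying whether they came from separate mice or cultures, and the p-values therefore rest on a spread that could be technical.

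In resting cells, IkB proteins hold NF-kB dimers in the cytoplasm. Signals such as LPS, acting through Toll-like receptor 4, activate the IKK kinase complex, which marks IkB for destruction and frees dimers to enter the nucleus. Among the genes that NF-kB then switches on are several of its own inhibitors, a negative feedback known best for Nfkbia, Nfkbie and Tnfaip3. A second route, through the kinase NIK (Map3k14), processes the Nfkb2 precursor and acts mainly through dimers of its product with RelB. The arrays report RNA, so they carry no information on where the proteins were or how much IkB was degraded.

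RefSeq promoter windows (GRCm38.p6) were at hand for 8 of the 10 genes and are shown because NF-kB binds DNA at kappaB sites, to which the feedback genes are known to respond. The 250 bases before the first listed start follow for 2 genes with the letters GGGNNTTNCC, a kappaB-like spelling, and for Nfkbie. Nfkbie had the largest rise in M1 among the 10 genes and lacks that exact spelling. Its window does hold gggggattcc, left in lower case, which fits the looser spelling GGGNNNNNCC. Capitals mark matches to GGGNNTTNCC on either strand, and each window is written 5′ to 3′ on the strand of the gene. Nfkbia lies at chr12:55492648-55492897 on the minus strand, Nfkb2 at chr19:46304487-46304736 on the plus strand and Nfkbie at chr17:45555450-45555699 on the plus strand.
Nfkbia: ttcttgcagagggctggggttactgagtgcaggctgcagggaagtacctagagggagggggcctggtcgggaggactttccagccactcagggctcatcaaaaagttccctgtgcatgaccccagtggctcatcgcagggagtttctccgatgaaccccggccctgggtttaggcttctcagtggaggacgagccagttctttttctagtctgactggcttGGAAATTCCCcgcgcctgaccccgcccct
Nfkb2: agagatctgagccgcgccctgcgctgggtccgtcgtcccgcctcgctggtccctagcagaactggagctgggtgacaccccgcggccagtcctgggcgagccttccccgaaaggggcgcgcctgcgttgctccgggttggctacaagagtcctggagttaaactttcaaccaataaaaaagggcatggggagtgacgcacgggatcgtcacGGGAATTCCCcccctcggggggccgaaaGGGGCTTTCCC
Nfkbie: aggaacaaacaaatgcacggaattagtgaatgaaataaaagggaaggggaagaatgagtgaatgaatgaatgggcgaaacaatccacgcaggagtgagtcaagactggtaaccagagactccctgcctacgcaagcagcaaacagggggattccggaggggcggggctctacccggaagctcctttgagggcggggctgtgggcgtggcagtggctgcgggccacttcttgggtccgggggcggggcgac
The match in Nfkbia lay 29 to 20 bases before the start. In Nfkb2 the matches began 39, 11 and 10 bases before it, the last pair overlapping, and the first also matched on the other strand. Shorter stretches, each the match with 10 bases on either side, show the corresponding letters in Tnfaip3, at 12 to 3 bases before the start (chr10:19015413-19015422, minus strand), and in Rel, at 92 to 83 bases before it (chr11:23771052-23771061, minus strand), where a second match overlapped by all but 1 base.
Tnfaip3: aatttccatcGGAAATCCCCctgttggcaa
Rel: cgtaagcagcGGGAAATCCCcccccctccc
Windows of 300 bases, with 50 bases after the start, held GGGNNTTNCC in 5 of these 8 genes (Nfkb2, Rel, Bcl3, Nfkbia and Tnfaip3), against 4.79% of 32851 windows over all genes. The units differ: a gene was counted if any of its windows matched (3 windows for Nfkb2, 2 for Tnfaip3, 1 for the others), while the percentages count windows. In Bcl3 the match lay after the start, and Nfkb2 held a further one in the windows of 2 later starts. The looser GGGNNNNNCC was present in 7 of the 8 genes, Nfkbie and Rela among them, and in 50.8% of all windows, and Nfkbib held neither. GGGNNTTNCC was chosen after the matches of 9 spellings had been seen, so these counts are a description, a match is not a shown binding site, and the absence of these letters in a window says nothing about the factor.

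The values are deposited log2 probe-set values, and the number of arrays limits their precision. Correlations between arrays across genes, which are not independent replicates, were 0.997 to 0.998 within M1, 0.996 to 0.998 within M2a and 0.956 to 0.995 within M0. Averaging M0 arrays 1 to 3 gave the same value as averaging M0 arrays 4 and 5 on each of 45101 probe sets, within 8.3e-05. The fit treats these 5 arrays as independent, which such a tie contradicts, so p-values against M0 may be too small. The fit also takes 1 spread per gene from all 11 arrays, so the M0 arrays enter the SEs and p-values of M1 against M2a as well. The M0 arrays also spread more: the SD over M0 exceeded that of both other groups in 8 of the 10 genes, and M0 arrays 1 and 4 were the lowest of M0 in 7 of them, as in 31.5% of all genes. The hybridization controls, which are added to every sample, averaged 9.35 to 9.56 in M1, 9.59 to 9.78 in M2a and 10.44 to 11.56 in M0. The poly-A controls averaged 5.27 to 5.37 in M1, 5.93 to 6.11 in M2a and 8.47 to 9.48 in M0, and the actin control's 5′ signal less its 3′ signal was 0.13 to 0.18 in M1, -0.63 to -0.53 in M2a and -1.27 to 0.05 in M0. Fits with the hybridization or the actin control as a covariate are given where they change a result. M0 did not overlap M1 or M2a in the hybridization controls, and M1 overlapped neither other group in the actin control. Such fits therefore cannot tell the part of a control from that of the group, and this part was otherwise not tested.

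Of the 8 macrophage markers, 4 rose and 1 fell in M1 and 1 rose and 5 fell in M2a. Over all genes, 22.1% rose and 17.6% fell in M1, and 18.6% rose and 13.3% fell in M2a. Adgre1 averaged 12.41 in M1, 11.74 in M2a and 11.19 in M0, and Csf1r, the M-CSF receptor, 13.46 in M1, 12.00 in M2a and 13.22 in M0. Markers of other cells moved with the groups. Of 11 neutrophil-lineage markers, 10 fell in M1 and 11 in M2a, and the log2 of their summed level was 13.60 to 13.71 in M1, 9.12 to 9.25 in M2a and 15.73 to 16.71 in M0. Lcn2, with 12.65 in M1, 4.03 in M2a and 12.45 in M0, and S100a8, with 12.35 in M1, 7.26 in M2a and 13.84 in M0, carried the M1 sum. The other 9 averaged 3.97 to 9.13 in M1, 4.69 to 6.50 in M2a and 8.96 to 14.11 in M0. All 7 eosinophil, basophil and mast cell markers fell in M1 and in M2a (7.13 to 7.33 in M1, 7.31 to 7.43 in M2a and 12.21 to 13.61 in M0), and so did all 5 measured markers of dividing cells (8.98 to 9.04 in M1, 8.79 to 9.25 in M2a and 11.38 to 12.07 in M0). Of the 6 measured markers of B, T and NK cells, 2 rose and 1 fell in M1 and 1 rose and 1 fell in M2a, and their sums overlapped (7.46 to 7.57 in M1, 7.46 to 7.53 in M2a and 7.35 to 7.90 in M0). These counts lie close to the shares of all genes. Among the 5 dendritic cell markers, 0 rose and 1 fell in M1, and 2 rose and 0 fell in M2a. Their sums were 7.78 to 7.85 in M1, 11.95 to 12.25 in M2a and 7.99 to 8.44 in M0. Itgax, which macrophages also express, carried the M2a sum. Whether these cells contributed to the values below was not tested, and fewer cells of a type and less RNA per cell cannot be told apart in such bulk samples.

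Most of the family was higher in M1 (IFN-g with LPS) than in M0. The inhibitor genes Nfkbie and Tnfaip3 and the subunit gene Relb led these rises. M0 also differed from both other groups in the hybridization and poly-A controls and in markers of other cells. The part of the cytokines cannot be told apart from these. In limma over all genes (Benjamini-Hochberg adjusted p under 0.05), 7 of the 10 genes rose in M1 and none fell, where 22.1% of all genes rose and 17.6% fell. In M1 against M0 the median difference of the 10 genes was 1.34 on the log2 scale, against 0.06 over all genes. The arrays of M1 lay wholly above those of M0 in the 7 called genes, as in 22.7% of all genes. In M2a (IL-4 with IL-13) against the same M0 arrays, the family was split. Of the 10 genes, 3 rose (Rel, Nfkbib and Tnfaip3), where 18.6% of all genes rose. The 4 genes that fell were Bcl3, Nfkbia, Nfkbie and Nfkbiz, where 13.3% of all genes fell. The median was -0.18, against 0.07 over all genes. The M2a arrays lay wholly above M0 in those 3 and below it in those 4 genes, as in 21.3% and 13.9% of all genes. Between the activated states, M1 was higher in 8 genes and lower in Rel alone (13.7% and 15.6% of all genes). In M1 against M0, 0 of the 10 genes were lower by an unadjusted p under 0.05 as well. Without M0 arrays 1 and 4, a setting chosen after the data were seen, 7 genes rose and 1, Rel, fell in M1, and 3 rose and 4 fell in M2a.

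**Figure D1:**
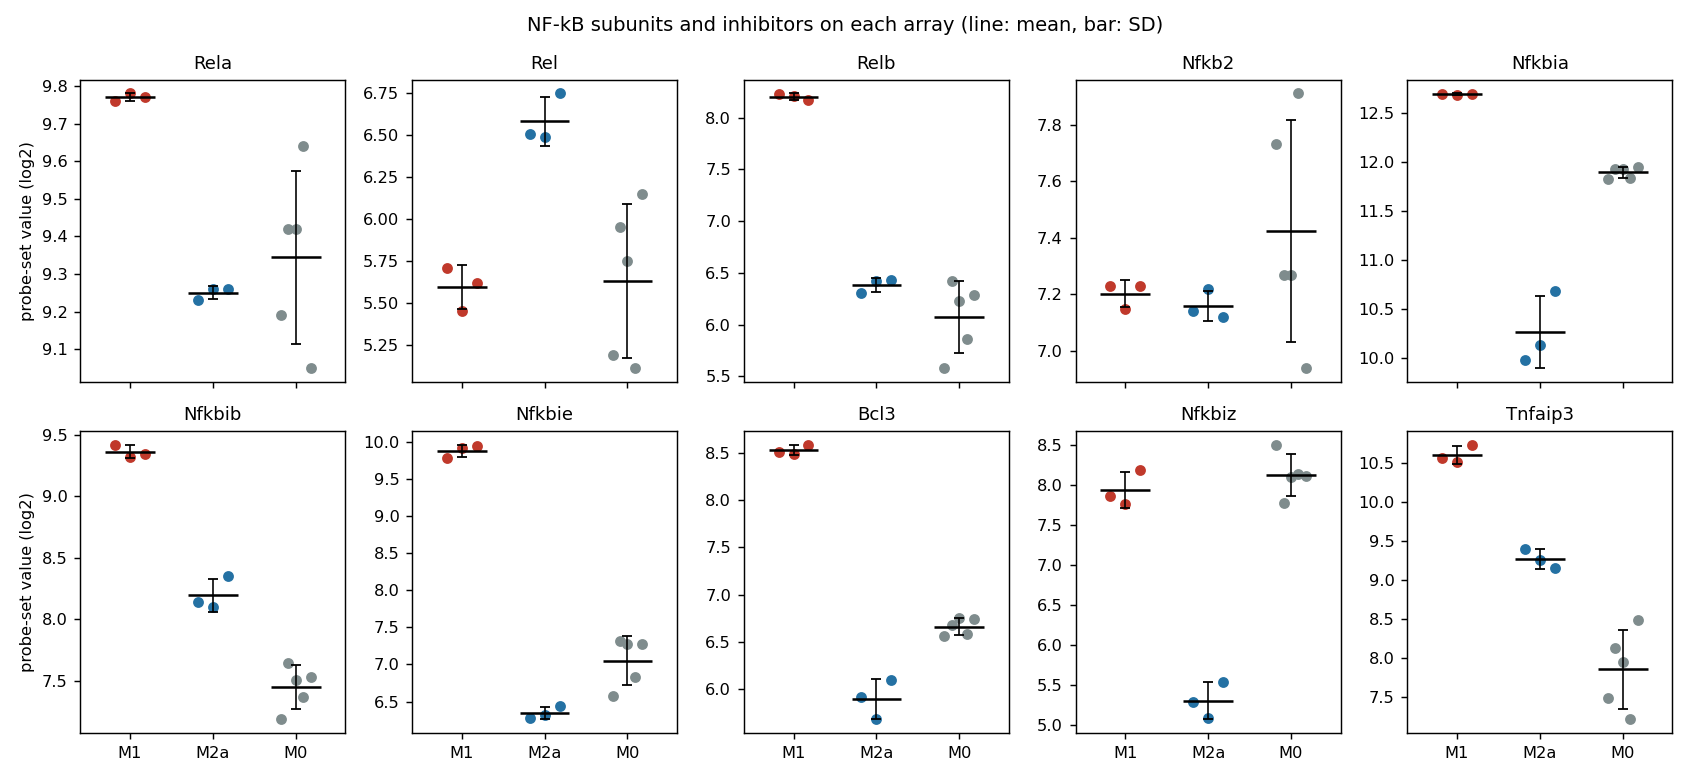
Deposited log2 probe-set values (vertical axes, one scale per gene) of the 10 genes on each array of M1, M2a and M0; points are arrays, lines are means and bars are SDs. M1 stands above both other groups in Rela, Relb, Nfkbia, Nfkbib, Nfkbie, Bcl3 and Tnfaip3, while Rel is highest in M2a and Nfkbiz is lowest there.

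Among the subunits, Relb, the partner of the Nfkb2 product, changed most in M1. Its values were 8.23, 8.21 and 8.17 in M1, 6.31, 6.42 and 6.43 in M2a, and 5.58, 6.42, 6.23, 5.86 and 6.29 in M0. The M1 arrays stood apart from all others, while M2a and M0 overlapped. Relb was 2.13 ± 0.17 (SE) higher in M1 than in M0, a 4.37-fold rise (limma adjusted p = 1.6e-06), and 1.82 ± 0.19 higher in M1 than in M2a (adjusted p = 1.6e-05). The difference of M2a from M0, 0.31 ± 0.17, missed the threshold in limma (adjusted p = 0.19). With the hybridization controls as a covariate the M1 difference was 1.21, and M2a was lower than M0 by a difference of -0.50 that passed (limma adjusted p = 0.022).

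Rela encodes p65, the transactivating subunit of the canonical dimer. Its values were 9.76, 9.78 and 9.77 in M1, 9.23, 9.26 and 9.26 in M2a, and 9.19, 9.42, 9.42, 9.64 and 9.05 in M0. M1 lay just above the highest M0 array, and M2a lay inside the M0 range. Rela rose by 0.43 ± 0.12 (SE), 1.35-fold, in M1 against M0 (limma adjusted p = 0.015) and was -0.09 ± 0.12 different in M2a (adjusted p = 0.59). The M1 call was lost under quantile normalization (0.22, limma adjusted p = 0.33) without M1 replicate 2 (0.42, adjusted p = 0.054) or 3 (0.43, adjusted p = 0.05), with M0 arrays 4 and 5 only (adjusted p = 0.095) and with a run term that places M1 and M2a with those arrays (adjusted p = 0.084), which makes it the weakest of the 7.

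Rel encodes c-Rel, a subunit of blood cells that macrophages use for cytokine genes such as Il12b, and it went its own way. Its values were 5.71, 5.45 and 5.62 in M1, 6.51, 6.49 and 6.75 in M2a, and 5.19, 5.95, 5.75, 5.11 and 6.15 in M0. All M2a arrays stood above all others, and M1 lay within the M0 range. Rel rose by 0.95 ± 0.22 (SE), 1.93-fold, in M2a against M0 (limma adjusted p = 0.0063), and was lower in M1 than in M2a by a difference of -0.99 ± 0.25 (adjusted p = 0.010). The M1 difference from M0 was -0.03, with a 95% interval of -0.52 to 0.45 (limma adjusted p = 0.92). Both values against M0 moved with the M0 arrays and controls. Without M0 arrays 1 and 4 the differences were -0.35 in M1 (limma adjusted p = 0.029) and 0.63 in M2a (adjusted p = 0.0014). With the hybridization covariate they were -1.34 in M1 (adjusted p = 0.00015) and -0.19 in M2a (adjusted p = 0.32). With the actin covariate they were -0.66 in M1 (adjusted p = 0.03) and 0.92 in M2a (adjusted p = 0.00038). The M1 to M2a difference, whose means hold no M0 array, ranged from -1.58 to -0.90 over 26 settings and passed in all of them. Rel has 1 probe set, at levels close to the array medians of 5.14 to 5.34, and the files used here give no detection calls.

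Nfkb2 encodes p100, the precursor of p52 and itself an inhibitor of RelB, and its 2 probe sets disagreed. On the probe set with the highest mean, 1429128_x_at, the values were 7.23, 7.15 and 7.23 in M1, 7.14, 7.22 and 7.12 in M2a, and 7.73, 7.27, 7.27, 7.91 and 6.94 in M0. All groups overlapped there, and the difference was -0.22 ± 0.18 (SE) in M1 (limma adjusted p = 0.36) and -0.26 ± 0.18 in M2a (adjusted p = 0.31). On the other, 1425902_a_at, the values were 7.88, 7.79 and 7.93 in M1, 6.86 on each of the 3 M2a arrays, and 6.53, 6.58, 6.68, 6.95 and 6.24 in M0. Here M1 stood above every other array. In a limma fit over all 34945 probe sets with 1 symbol, in which 21.9% rose in M1, that probe set rose by 1.27 ± 0.13 in M1 against M0 (adjusted p = 2.1e-05) and was 0.26 ± 0.13 different in M2a (adjusted p = 0.16). The ending _x_at marks probe sets that can bind several transcripts, and whether this played a part was not tested. The M1 value thus depends on the probe set read. It also depends on the fit: on 1429128_x_at the hybridization covariate gave 0.78 in M1 and 0.61 in M2a against M0 (limma adjusted p = 0.0084 and 0.016), and the actin covariate put M1 above M2a by 0.57 (adjusted p = 0.014).

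**Figure D2:**
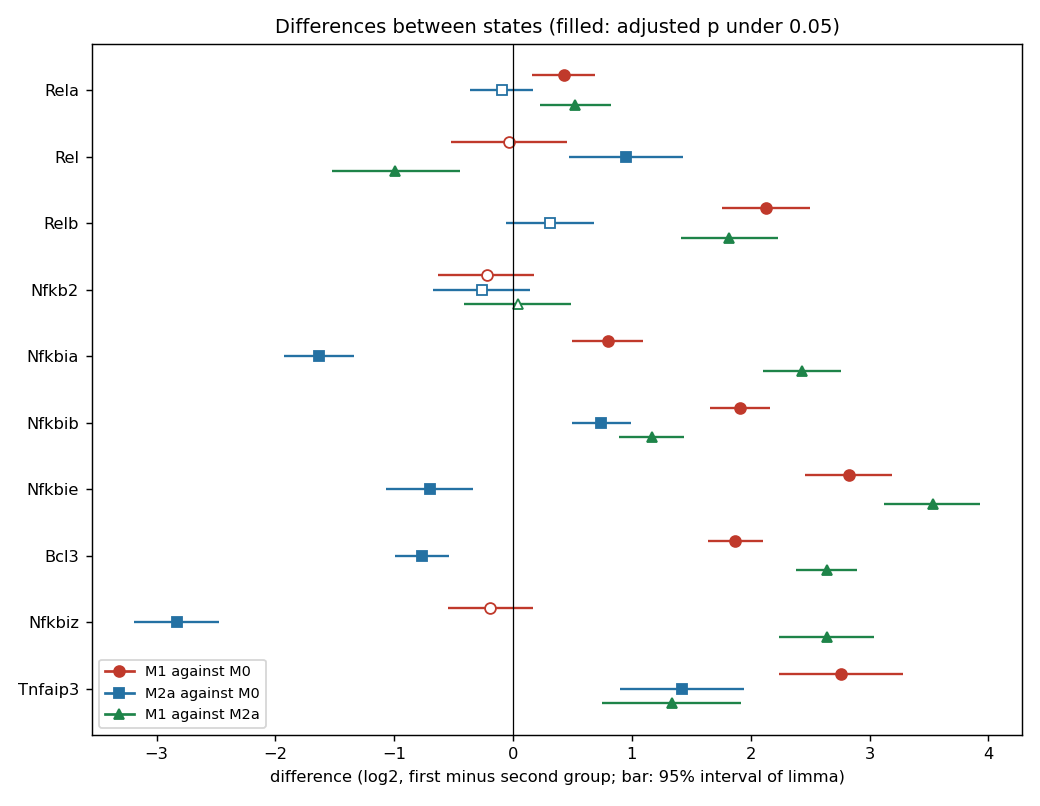
Differences of the 10 genes (horizontal axis, log2, first minus second group) in M1 against M0, M2a against M0 and M1 against M2a; bars are limma's 95% intervals and filled symbols have an adjusted p under 0.05. Nfkbie and Tnfaip3 lie farthest to the right in M1 against M0 (2.83 and 2.76), and Nfkbiz lies farthest to the left in M2a against M0 (-2.83).

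The 3 classical inhibitors rose in M1, while in M2a Nfkbib rose and Nfkbia and Nfkbie fell. Nfkbie encodes IkB epsilon, which binds mainly RelA and c-Rel dimers. Its values were 9.78, 9.91 and 9.94 in M1, 6.28, 6.32 and 6.44 in M2a, and 6.57, 7.32, 7.27, 6.83 and 7.27 in M0. The 3 groups did not overlap, with M0 between the others. Nfkbie was 7.09-fold higher in M1 than in M0 (2.83 ± 0.17 (SE) on the log2 scale, limma adjusted p = 1.5e-07) and lower in M2a by a difference of -0.70 ± 0.17 (adjusted p = 0.0070). The separation of M1 from M2a, 3.53 ± 0.19 or 11.5-fold (adjusted p = 5.3e-08), was the largest of the 10 genes in any comparison on the probe sets used. Its other probe set gave 3.13 ± 0.10 in M1 and -0.68 ± 0.10 in M2a against M0. With the hybridization controls as a covariate the M2a difference was -1.46.

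Nfkbia encodes IkB alpha, the inhibitor that is degraded and made anew in each round of NF-kB activity. Its values were 12.70, 12.69 and 12.70 in M1, 9.98, 10.13 and 10.68 in M2a, and 11.83, 11.93, 11.93, 11.84 and 11.95 in M0. Each group was apart from the others, again with M0 in the middle. Nfkbia rose by 0.80 ± 0.14 (SE), 1.74-fold, in M1 (limma adjusted p = 0.00067) and fell to 10.26 ± 0.37 in M2a, against 11.90 ± 0.06 in M0 (SD, n = 3 and 5; difference -1.63 ± 0.14 (SE), limma adjusted p = 4.6e-06). All 5 of its probe sets passed in both comparisons with these signs, at 0.56 to 1.49 in M1 and -1.91 to -0.79 in M2a. The probe set described here is the brightest, and 3 of the others gave M1 rises of 1.35 to 1.49. With the hybridization controls as a covariate the M1 call was lost (0.56, limma adjusted p = 0.11).

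Nfkbib encodes IkB beta, the slower of the classical inhibitors, and it rose in both activated states. Its values were 9.42, 9.32 and 9.34 in M1, 8.14, 8.10 and 8.35 in M2a, and 7.19, 7.65, 7.51, 7.37 and 7.53 in M0. M0 was the lowest group, M2a lay above it, and M1 above both. The difference from M0 was 1.91 ± 0.11 (SE), 3.75-fold, in M1 (limma adjusted p = 1.6e-07) and 0.74 ± 0.11, 1.67-fold, in M2a (adjusted p = 0.00041). The second probe set, 1446718_at, stayed at 4.06 to 4.63 on all 11 arrays and called nothing, at 0.11 ± 0.14 in M1 and 0.18 ± 0.14 in M2a (limma adjusted p = 0.55 and 0.35 over all probe sets). The probe set used ends in _s_at, which can bind related transcripts. In M2a the call was also lost with the hybridization controls as a covariate (0.34, limma adjusted p = 0.085).

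Bcl3 and Nfkbiz encode nuclear IkB-like proteins that sit on p50 or p52 dimers and tune transcription. Bcl3 had 8.51, 8.49 and 8.59 in M1, 5.91, 5.68 and 6.10 in M2a, and 6.56, 6.68, 6.75, 6.58 and 6.74 in M0. M1 lay highest and M2a lowest, with no overlap. Bcl3 rose by 1.87 ± 0.10 (SE), 3.66-fold, in M1 (limma adjusted p = 9.4e-08) and fell by 0.77 on the log2 scale in M2a (SE 0.10, adjusted p = 0.00018). Both calls and that of M1 against M2a, 2.64 ± 0.12, held in all 27 alternative settings.

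Nfkbiz encodes IkB zeta, which LPS induces and which is needed for a later set of genes such as Il6. On the probe set with the highest mean it had 7.87, 7.76 and 8.19 in M1, 5.28, 5.08 and 5.54 in M2a, and 8.51, 7.78, 8.10, 8.14 and 8.12 in M0. M2a stood far below both other groups, which overlapped. The M2a difference from M0 was -2.83 ± 0.16 (SE), a 7.11-fold lower level and the largest fall of the 10 genes (limma adjusted p = 2.6e-07), while M1 differed from M0 by -0.19 ± 0.16 (adjusted p = 0.39). The other 2 probe sets also fell in M2a, with differences of -2.91 ± 0.23 and -1.54 ± 0.16 (13.2% of all probe sets fell), but both rose in M1. The probe set 1417483_at had 8.97, 8.87 and 9.19 in M1, 4.11, 4.18 and 4.44 in M2a, and 6.74, 7.48, 7.24, 6.61 and 7.69 in M0, a rise of 1.86 ± 0.23 in M1 (limma adjusted p = 6.5e-05 over all probe sets), and 1448728_a_at rose by 0.72 ± 0.16 (adjusted p = 0.0041). The fall in M2a was thus read by every probe set of the gene, and the M1 value depended on which was taken.

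**Figure D3:**
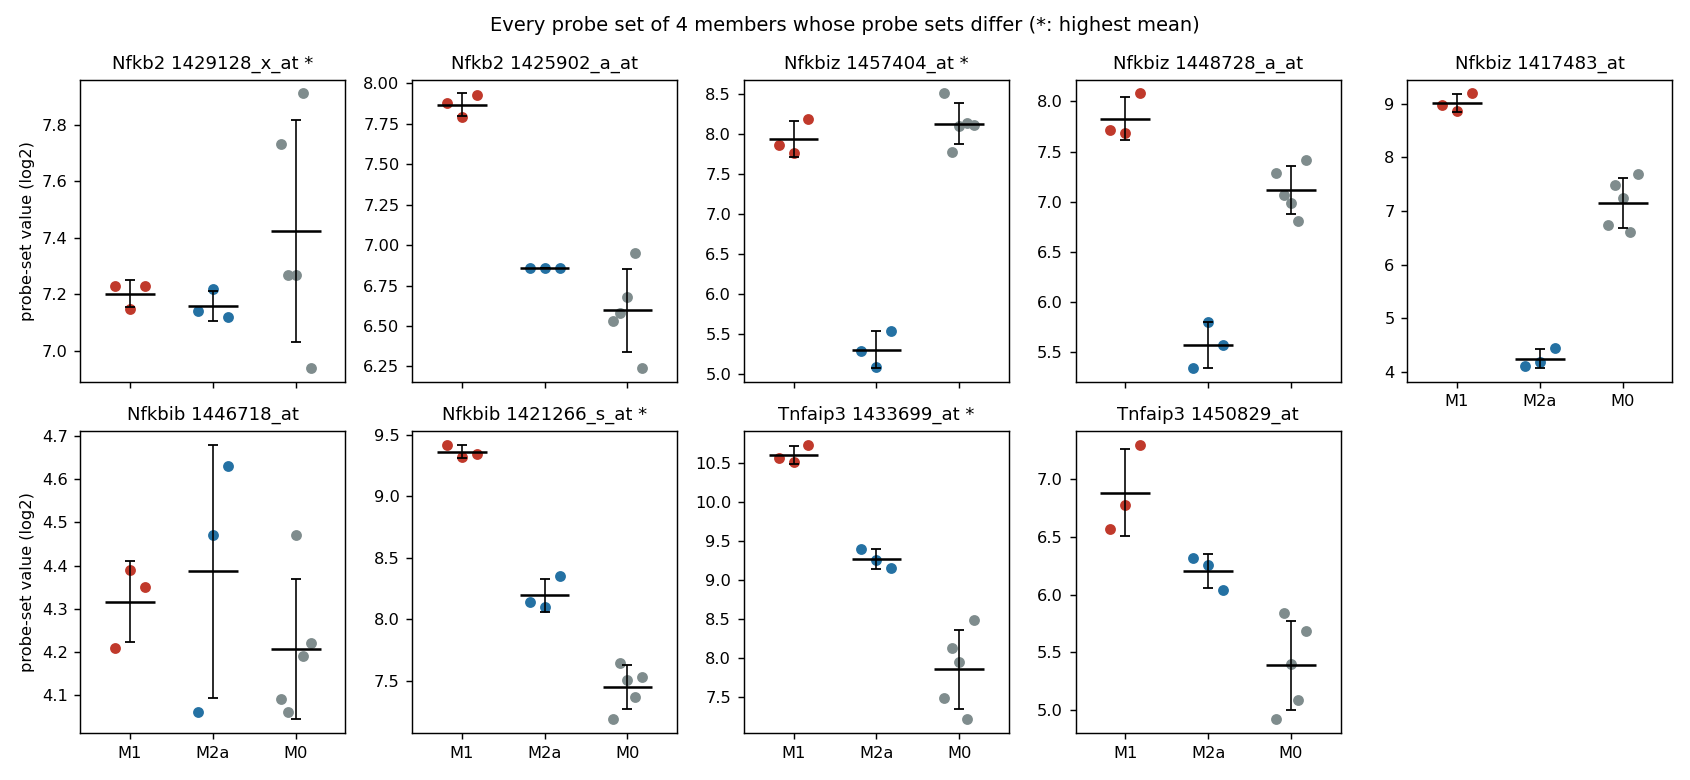
Log2 values (vertical axes, one scale per panel) of every probe set of Nfkb2, Nfkbiz, Nfkbib and Tnfaip3 on the arrays of M1, M2a and M0; points are arrays, lines are means, bars are SDs and an asterisk marks the probe set with the highest mean. M1 lies above M0 on 1 of 2 probe sets of Nfkb2 and on 2 of 3 of Nfkbiz, and the second Nfkbib probe set stays between 4.06 and 4.63.

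Tnfaip3 encodes A20, which removes activating ubiquitin chains upstream of IKK. Its values were 10.57, 10.52 and 10.74 in M1, 9.40, 9.26 and 9.15 in M2a, and 7.48, 8.12, 7.95, 7.21 and 8.49 in M0. The groups were ordered M1, M2a, M0 without overlap. Tnfaip3 was 6.77-fold higher in M1 (2.76 ± 0.24 (SE), limma adjusted p = 3.5e-06) and 2.68-fold higher in M2a (1.42 ± 0.24, adjusted p = 0.00084) than in M0, and 1.34 ± 0.27 higher in M1 than in M2a (adjusted p = 0.0026). Its second probe set averaged 6.89 in M1, 6.21 in M2a and 5.39 in M0, and rose in M1 and in M2a (limma adjusted p = 0.00027 and 0.015 over all probe sets), but its M1 to M2a difference missed the threshold there (0.68 ± 0.25, adjusted p = 0.060). The M2a rise was lost with the hybridization controls as a covariate (0.29, limma adjusted p = 0.33), under which the M1 rise was 1.46. With the actin control as a covariate, M1 was 0.63 above M2a.

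Upstream of these genes stand the IKK complex and the adaptors that activate it. Of 15 measured kinases and adaptors, 10 rose and 1 fell in M1, with a median of 0.81. Over all genes, 22.1% rose and 17.6% fell in M1 (39.7% either way). Chuk, Traf3 and Ripk1, also on this list, were not among the 18193 genes tested. Ikbkg, the regulatory NEMO subunit of IKK, rose by 1.66 ± 0.16 (SE), the adaptor Traf5 by 1.65 ± 0.22 and Ikbke, an IKK-related kinase of the antiviral route, by 1.15 ± 0.12, while Ikbkb, the catalytic kinase that marks IkB, was lower by a difference of -0.54 ± 0.08 (limma adjusted p = 8.9e-06, 0.00012, 1.6e-05 and 0.00025). In M2a 1 of the 15 rose and 3 fell, with a median of -0.03, where 18.6% of all genes rose and 13.3% fell (31.9% either way). That count of 4 was 7 under quantile normalization and without M0 arrays 1 and 4, and 9 with array weights or the hybridization covariate. Traf5 rose by 1.92 ± 0.22, and Birc3, the ubiquitin ligase cIAP2, and Ikbke were lower by differences of -1.45 ± 0.14 and -1.23 ± 0.12 (limma adjusted p = 5.7e-05, 1.5e-05 and 1.6e-05). Map3k14, the NIK kinase of the second route, averaged 6.46 in M1 and 6.46 in M0 (limma adjusted p = 0.99), and its M2a difference from M0 was -0.17 ± 0.17 (adjusted p = 0.47).

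The partners of A20 and other enzymes that restrain the pathway rose with Tnfaip3 in part. Of 10 measured, 6 rose and none fell in M1, where 22.1% of all genes rose (median 0.65, against 0.06 over all genes). In M2a 4 rose and none fell, where 18.6% of all genes rose (median 0.28, against 0.07). In M1 these were led by N4bp1, a suppressor of NF-kB signalling, at 2.06 ± 0.16 (SE), and by the A20-binding proteins Tnip1 at 1.58 ± 0.09 and Tnip2 at 1.12 ± 0.21 (limma adjusted p = 1.8e-06, 1.6e-07 and 0.0015). The M2a rises were those of Tnip1 (0.29 ± 0.09, limma adjusted p = 0.033), Otulin, which cleaves linear ubiquitin chains, at 0.77 ± 0.22, Tnip2 at 0.69 ± 0.21 and Otud7b, a deubiquitinase, at 0.55 ± 0.09 (limma adjusted p = 0.019, 0.028 and 0.00093). Otulin and Otud7b were not called in M1 against M0, and M1 was below M2a in both, by differences of -1.25 ± 0.25 and -0.72 ± 0.10 (adjusted p = 0.0023 and 0.00026). The M2a count was 1 when M2a replicate 1, 2 or 3 was left out and 2 without M0 replicate 1.

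Nfkb1 was not among the 18193 genes tested. Of 7 other measured genes of the Rel and IkB group, 2 rose and 2 fell in M1 (median -0.17) and 2 rose in M2a (median 0.24). These counts lie close to the shares of all genes, of which 22.1% rose and 17.6% fell in M1 and 18.6% rose in M2a, and are no result about the group. Nkiras1, a Ras-like protein that binds IkB, rose by 1.12 ± 0.23 (SE) in M1 and 1.01 ± 0.23 in M2a (limma adjusted p = 0.0026 and 0.0061). Nfkbid, a further nuclear IkB, rose by 0.50 ± 0.07 in M1 and by 0.21 ± 0.07 in M2a (adjusted p = 0.00026 and 0.046). Nfkbil1, an IkB-like gene of the MHC region, fell by 0.72 and Nkiras2 fell by 0.49 on the log2 scale in M1 (adjusted p = 0.0012 and 0.0025). The M2a count was 1 without M1 replicate 1, 2 or 3, M2a replicate 1, 2 or 3, or M0 replicate 1 or 3.

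Known NF-kB target genes mostly rose in M1, and more of them fell than rose in M2a. Of 19 measured target genes, 14 rose and 2 fell in M1 (median 2.24), where 22.1% of all genes rose and 17.6% fell. In M2a 2 rose and 10 fell (median -0.67), where 18.6% of all genes rose and 13.3% fell. Ptgs2, the inducible cyclooxygenase, had 11.65, 11.64 and 11.93 in M1, 3.34, 3.44 and 2.95 in M2a, and 6.09, 6.89, 6.30, 5.95 and 6.90 in M0. It was 5.32 ± 0.23 (SE) higher in M1 and lower in M2a by a difference of -3.18 ± 0.23 (limma adjusted p = 1.1e-08 and 1.3e-06). The next largest rises in M1 were those of Il1b and Il1a, the interleukin-1 genes, by 4.15 ± 0.16 and 3.42 ± 0.15, and the falls were those of Cd83, a surface protein of activated antigen-presenting cells (-1.79 ± 0.40), and of the chemokine Ccl3 (-0.97 ± 0.21; adjusted p = 5.0e-09, 1.8e-08, 0.0042 and 0.0030). In M2a the chemokine Cxcl2 was lower by a difference of -3.03 ± 0.29, and Cflar, which blocks caspase-8, and Cd40 rose by 0.52 ± 0.18 and 0.32 ± 0.09 (limma adjusted p = 1.4e-05, 0.048 and 0.016). Many of these genes also answer to interferon-gamma or other factors, so their values are not a readout of NF-kB alone. Of 19 targets, 17 were higher in M1 than in M2a and none lower, where 13.7% of all genes were higher and 15.6% lower.

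**Figure D4:**
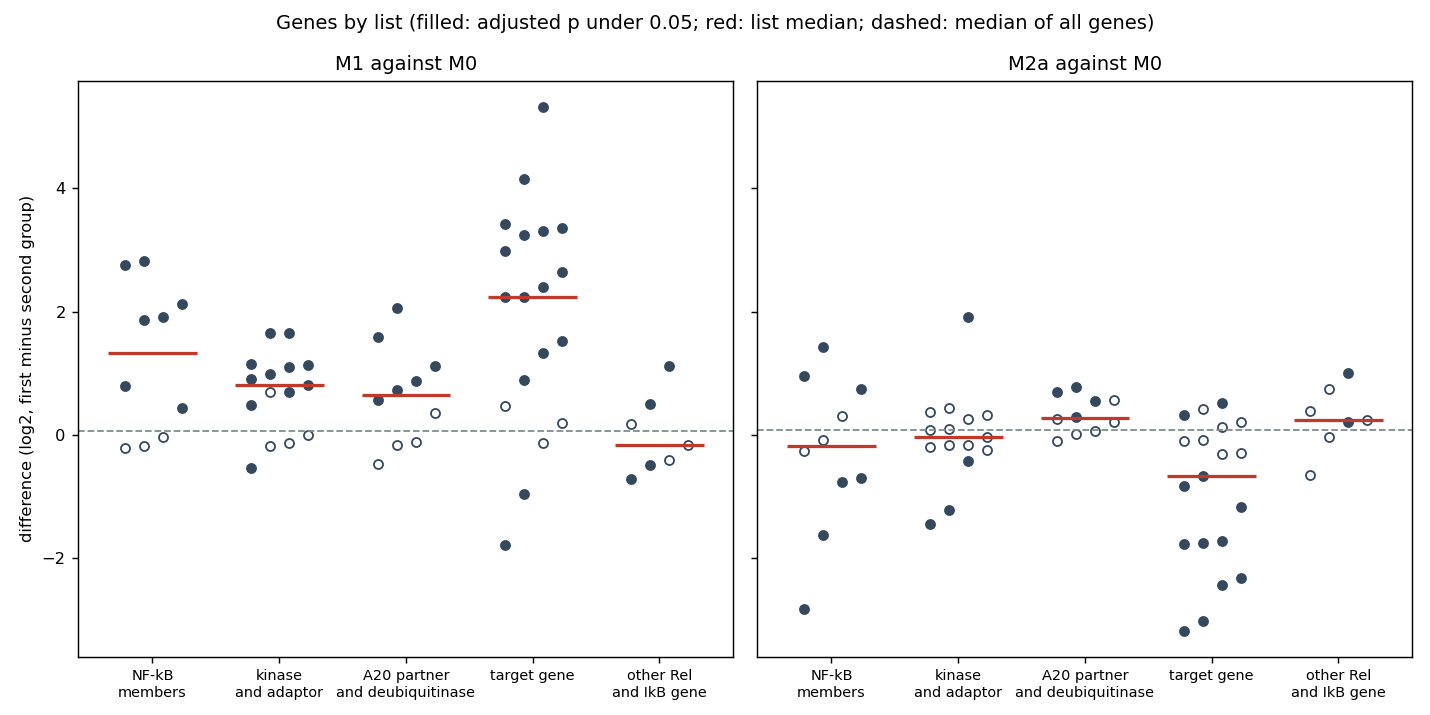
Differences (vertical axis, log2) of single genes in M1 against M0 (left) and M2a against M0 (right) for the 10 NF-kB genes and 4 lists of the pathway; points are genes, filled where the adjusted p is under 0.05, red lines are list medians and dashed lines the median of all genes. In M1 the medians are 1.34 for the NF-kB genes and 2.24 for the targets, and in M2a they are -0.18 and -0.67.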

How the data were processed

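RNA of 11 macrophage samples was measured on Affymetrix mouse expression arrays. The deposited log2 values, 45101 probe sets per array, ran from 0.73 to 14.49, with array medians of 5.14 to 5.34. Per the submitters' processing notes Partek was used (no version); how background was corrected, probes summarised and arrays normalized is "not given in the sources used here". Probe sets with 1 gene symbol (34945) were named from the platform annotation, with 34741 symbols updated through Entrez identifiers against RefSeq; 932 with several symbols were left out. Each of 18193 genes took its probe set with the highest mean, with no filter on low values. Differences were tested with limma 3.58.1 in R 4.3.3 on all 11 arrays, adjusted by Benjamini-Hochberg over all genes, threshold 0.05, and the code was tested on simulated data. Other probe sets were tested in a fit of all 34945. The members and lists were chosen with earlier results of these data known. All 10 members are described; from each list the text names up to 3 rises and 2 falls per comparison with M0, and Map3k14 was added after its values were seen. No log transformation was needed. Alternatives covered normalization, probe-set choice, dim genes, moderation, arrays, weights, blocks, runs and controls. Nearest profiles were found by root mean square distance over the 11 arrays.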

Additional observations from a re-analysis of the deposited data

How the results depend on the processing

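Of 807 member differences recomputed under 27 alternatives, 773 kept their direction and their side of the threshold and 17 changed sign. Calls were lost in 13 and gained in 12, of which 2 and 6 changed sign as well. In 390 the difference itself equalled the main one within 0.0001, among them many fixed by construction: the M0 tie fixes it when M0 arrays 1 to 3 or 4 and 5 are used alone or a run term is added, and M1 against M2a cannot move when M0 arrays are left out. Those say nothing about the stability of a direction. Sign changes in M1 against M0 were those of Nfkb2 (0.52 with the mean of its probe sets, 1.27 without _x_at and _s_at probe sets and on 1425902_a_at, 0.78 with the hybridization covariate, 0.34 with the actin covariate, 0.04 without M0 arrays 1 and 4), of Rel (0.04 under quantile normalization, -0.16 to 0.10 when 1 array was left out, above 0 without M1 replicate 2 (0.04), M0 replicate 2 (0.05) or M0 replicate 5 (0.10)) and of Nfkbiz (0.80 with the mean of its probe sets, 0.29 with the hybridization covariate, 1.86 and 0.72 on its other probe sets). In M2a against M0 they were those of Nfkb2 (0.26 without _x_at and _s_at probe sets and on 1425902_a_at, 0.61 with the hybridization covariate) and, with that covariate, of Rel (-0.19), Rela (0.10) and Relb (-0.50). Nfkbib was -0.07 in M1 against M2a without _s_at probe sets, which leaves 1446718_at. The causes were not tested.

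Members lower in M1 than in M0 numbered 1, Rel, with either covariate and without M0 arrays 1 and 4. Members higher in M1 than in M0 numbered 9, Nfkb2 and Nfkbiz included, with the mean of all probe sets. They numbered 6 under quantile normalization, with M0 arrays 4 and 5 only and with the run term that joins those arrays to M1 and M2a. Members higher in M1 than in M2a numbered 9 with the mean of all probe sets or the actin covariate, and 7 under quantile normalization. Members higher in M2a than in M0 numbered 1, Nfkb2, with the hybridization covariate. No member was lower in M1 than in M2a among genes above the median gene, since Rel is not among them. Kinases and adaptors changed in M2a numbered 7 under quantile normalization and without M0 arrays 1 and 4, and 9 with array weights or the hybridization covariate. A20 partners changed in M2a numbered 2 in the fit of only both groups and 1 with M0 arrays 4 and 5 only or with either run term. The other Rel and IkB genes changed in M2a numbered 1 with trend and robust moderation, in the fit of only both groups, with M0 arrays 4 and 5 only, with either run term or with the hybridization covariate, 5 with array weights or the actin covariate, and 4 with the replicate block. Leaving out 1 array gave 6 to 7 members higher in M1 and 3 higher and 4 lower in M2a, 1 to 4 A20 partners and 1 to 3 other Rel and IkB genes changed in M2a, and 0 to 2 members in which an M0 array stood apart, against 0 with all arrays.

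Correlations of the arrays' deviations across genes were -0.039 to 0.248 for same-numbered and -0.244 to 0.221 for differently numbered arrays. Since they did not exceed 0.1 in every same-numbered pair, the samples were taken to share only a number. With the replicate block the members' counts were 7 higher and 0 lower in M1, 3 and 4 in M2a, and 8 and 1 in M1 against M2a, and no call of a member changed. The block raised the called genes among the A20 partners to 9 in M1 against M2a. Every setting that keeps the 5 M0 arrays treats them as independent, and 3 arrays per activated state limit the precision.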

Other observations

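The gene outside the family with the profile nearest to each member, by root mean square distance over the 11 arrays with each gene centred on its own mean, lay at 0.048 to 0.232 log2 units. Bcl3 was nearest to Rnf213 (0.191) and Nfkbie to Trim30a (0.168). Relb was nearest to Magee1 (0.131), Rela to Zfp771 (0.083), Rel to Neurl2 (0.140) and Nfkb2 to Wt1 (0.048). Wt1 averaged 3.28 in M1, 3.30 in M2a and 3.53 in M0, below the array medians of 5.14 to 5.34. The Nfkb2 profile is that of 1429128_x_at, with which its other probe set disagreed in M1. Nfkbia was nearest to 6330407A03Rik (0.151), Nfkbib to Rab10 (0.105), Nfkbiz to Limd2 (0.232) and Tnfaip3 to Ly75 (0.169). Within the family the nearest pair was Relb and Nfkbib (0.275), and Rel stood farthest from its nearest member, Rela (0.687). The distances describe these arrays and were not tested.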
